A study of Drosophila melanogaster with 12 samples.

Results

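The 8 genes grh, ple, Ddc, Cad96Ca, Pvr, Pvf1, Pvf2 and Pvf3, which act in the closure and rebuilding of wounded insect epidermis, were followed through the regeneration of wing imaginal discs, the larval epithelia that give rise to the wings of the fly. They were chosen by name, and all 8 were found among the 17158 genes of the deposited table by their FlyBase identifiers. Poly(A) RNA of Drosophila melanogaster wing discs in the third larval instar was sequenced at 0 h, 15 h and 25 h from regenerating discs, in which cells had been driven into apoptosis, and from undamaged control discs kept alike without cell death. There were 2 libraries in each of the 6 groups, from 40 pooled discs apiece. By the labels the regenerating and the control discs differ in genotype, but no allele, driver of cell death or age beyond the instar is named, and all flies had standard food. The 8 wing disc markers examined (vg, nub, rn, ap, en, hth, tsh and sd) were above 0 in every group, with a summed level of 215, 337 and 227 FPKM in regenerating discs at 0 h, 15 h and 25 h, against 178, 258 and 282 FPKM in control discs. At 0 h 5 of the 8 had a higher value in regenerating discs and 3 a lower. At 15 h 8 had a higher value, and at 25 h 1 a higher and 7 a lower. The sums are not set against the shift of the median gene given below.

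Values are FPKM, fragments scaled to the length of the transcript and the size of the library, which allow levels of different genes to be compared. The authors deposited 1 merged value per gene and group, so no spread between replicates, no test and no p-value could be had, and neighbouring levels cannot be ranked beyond their spread. A gene was called higher or lower by a rule of size, namely when its log2 ratio of (FPKM + 1) reached 1 or -1 and a level of 1 FPKM or more stood in 1 or both groups, which is also what measured means below. This scale understates the change of genes with low values. Lost decimal points were restored in 5 of the 6 group columns, which concerned 14 of the 48 values of these genes. The ratio of the median measured gene, regenerating over control, was itself 0.47 at 0 h, 0.35 at 15 h and 0.10 at 25 h, and ratios are set against it below. In bulk discs fewer cells of a type and less RNA per cell cannot be told apart.

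In insect epidermis the transcription factor Grainy head (grh) switches on genes of the cuticle barrier and takes part in the response to wounding. The receptor tyrosine kinase Stitcher (Cad96Ca) acts with it at embryonic wounds in Drosophila. Among the genes turned on around such wounds are ple, which encodes tyrosine hydroxylase, and Ddc, which encodes dopa decarboxylase, enzymes whose catecholamine products harden and darken new cuticle. Pvr is the only fly receptor of the PDGF and VEGF type, with the ligands Pvf1, Pvf2 and Pvf3. It is known for guiding migrating border cells in the ovary, for the survival and spread of blood cells, and for the movement of epidermal cells over larval wounds.

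Of the 8 genes, 6 were measured at 0 h and 5 each at 15 h and 25 h. At 0 h 1 was higher in regenerating than in control discs, and 0 were lower, and at 15 h and 25 h 0 were higher and 0 lower. The background over all measured genes at 0 h was 7.47% higher and 3.04% lower. It was 5.95% higher and 2.2% lower at 15 h, and 9.11% higher and 3.2% lower at 25 h. The higher gene was Ddc, which was under 1 FPKM in every other group. Both Pvr and its ligands, as well as Cad96Ca, differed by less than the rule at each time. Over the 6 groups grh had the widest range after Ddc, with its highest level in regenerating discs at 15 h and a lower one at 25 h. The tyrosine hydroxylase gene ple was listed at 0 in 4 of the 6 groups.

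**Figure D1:**
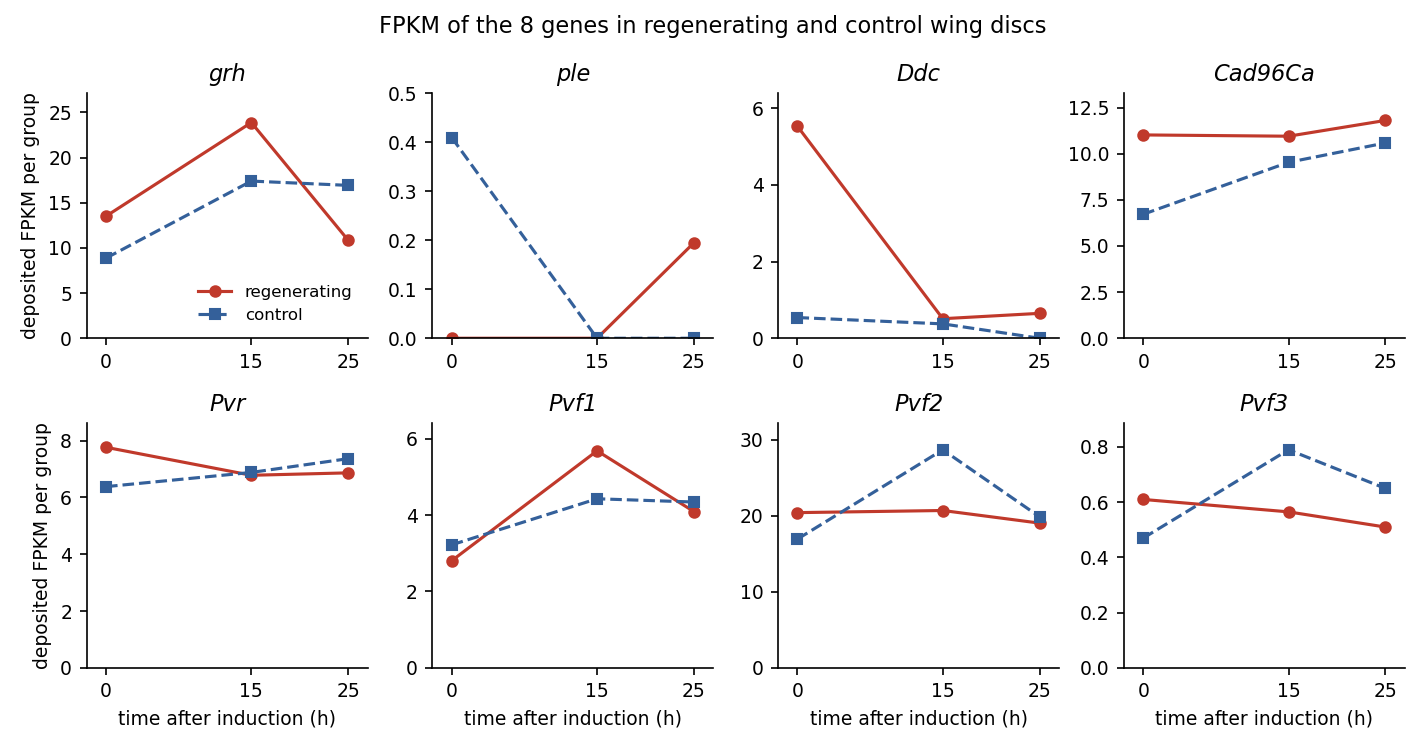
Deposited FPKM (y axis, from 0, with its own scale in each panel) of the 8 genes at 0 h, 15 h and 25 h after induction (x axis) in regenerating (circles, solid lines) and control discs (squares, dashed lines), 1 merged value per point and no error bars, since replicates were not separate. Ddc stands at 5.53 FPKM in regenerating discs at 0 h and at no more than 0.65 FPKM in the other groups, and grh peaks at 23.9 FPKM in regenerating discs at 15 h.

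The cuticle enzyme gene Ddc (FBgn0000422, chromosome 2L, 19116483 to 19120306, minus strand, 3 annotated transcripts, like all coordinates here on build dm6) gave 5.53, 0.51 and 0.65 FPKM in regenerating discs at 0 h, 15 h and 25 h, against 0.54, 0.375 and 0 FPKM in control discs at the same times. The value in regenerating discs at 0 h thus stood alone, at 8.51 times the next highest of the 6. At 0 h the log2 ratio was 2.08, or 1.61 above the median of all measured genes, and the fold of the plain values was 10.2. It ranked 44 from the top of 8202 measured genes. Ddc counts as measured here only through its high value in regenerating discs. The rank and the call therefore restate that value and are no separate support for it. After median-of-ratios scaling, which centres the ratios of all genes near 0, the log2 ratio was 1.85, still past the rule, when 2.34% of genes were higher. With a pseudocount of 5 in place of 1 it was 0.93, just short of the rule, and with 0.1 it was 3.14.

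The Ddc difference at 0 h rests on a low control value. The control column at 0 h rises in steps at its low end, with 94.7% of 320 low values of genes of 1 transcript within 0.1 of a step of a whole multiple of 0.118 FPKM times kilobase. If such a step is 1 fragment, 0.54 FPKM of Ddc stands for 8.69 fragments at its median transcript length and for 7.98 to 11.95 over its shortest and longest transcripts. The value in regenerating discs at 0 h lay 16.2 times above the smallest amounts listed in that column, taken as the 1st percentile over genes of 1 transcript. In control discs at 25 h, where Ddc is listed at 0, the smallest amounts correspond to 0.554 FPKM for a gene of its length. That is above its values of 0.51 FPKM in regenerating discs at 15 h and 0.375 FPKM in control discs at 15 h, so no fold is given for 25 h.

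Within regenerating discs Ddc was lower at 15 h than at 0 h, with a log2 ratio of -2.11, and lower at 25 h than at 0 h, with -1.98. Of all measured genes 3.68% were lower in the first of these comparisons and 3.81% in the second. Both rest on the same 0 h value as the comparison with control discs. In control discs Ddc stayed under 1 FPKM at all 3 times and was therefore not measured by the rule.

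Ddc lies in a dense gene cluster, and its neighbours did not share its ratio in size. Of 13 genes within 15 kb, 9 reached 1 FPKM at 0 h, with log2 ratios between 0.11 for DCTN6-p27 and 1.11 for brat and a median of 0.51. Of these, brat was the 1 past the rule, at 15.7 FPKM in regenerating and 6.76 FPKM in control discs. The convergent gene CG10561 overlaps the end of Ddc by 88 bases on the other strand and stood at 6.73 FPKM in regenerating and 3.61 FPKM in control discs, a log2 ratio of 0.75. The paralogous gene amd, which encodes a related enzyme and lies in the same cluster, stood at 13.3 FPKM in regenerating and 9.04 FPKM in control discs at 0 h. The sources do not say whether reads were assigned by strand, so reads in the shared bases of Ddc and CG10561 cannot be told apart.

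**Figure D2:**
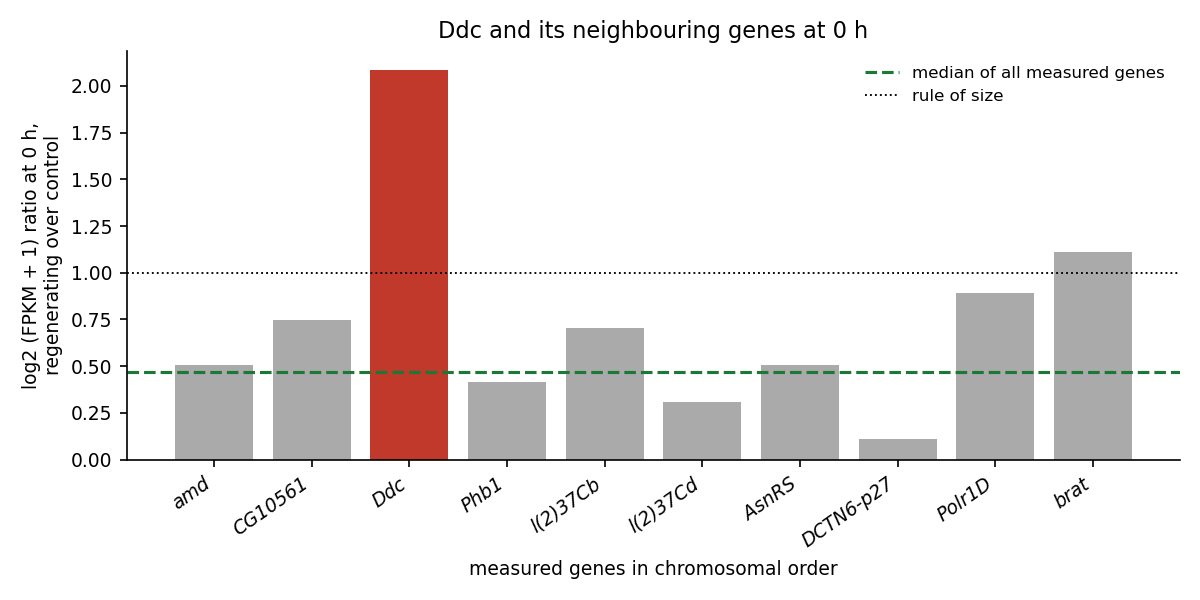
Log2 ratio of (FPKM + 1), regenerating over control at 0 h (y axis, bars from 0), of Ddc and of the genes within 15 kb that reached 1 FPKM, in chromosomal order (x axis). The dashed line is the median of all measured genes at 0.47 and the dotted line the rule of size. Ddc stands at 2.08 and its 9 measured neighbours between 0.11 and 1.11.

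Ddc and ple also act in dopamine neurons, and fat body and blood cells can come along with dissected discs. Markers of these cells were therefore read beside Ddc. At 0 h the 4 neuronal markers (elav, nSyb, Syt1 and Vmat) summed to 2.64 FPKM in regenerating and 1.91 FPKM in control discs, and the vesicular amine transporter gene Vmat, which dopamine neurons need, was listed at 0 in all 6 groups. The 9 hemocyte markers (Hml, NimC1, eater, crq, Pxn, He, srp, lz and Sr-CI) summed to 20.2 FPKM in regenerating and 20.3 FPKM in control discs at 0 h. The near-equal sums rest on crq, at 14.2 FPKM in regenerating and 9.37 FPKM in control discs. Without crq, a choice made after the values were seen, the other 8 summed to 5.975 FPKM in regenerating and 10.9 FPKM in control discs. Of the 9 markers 2 had a higher and 6 a lower value in regenerating discs, lz was at 0 in both, and the median of the 6 measured was -0.77 relative to all genes. The 1 marker past the rule was He, at 0 in regenerating and 3.18 FPKM in control discs, while eater stood at 0.815 FPKM in regenerating and 1.70 FPKM in control discs.

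Fat body markers (Lsp2, Lsp1beta, Lsp1gamma, Fbp1, Fbp2 and Obp99b) summed to 391.6 FPKM in regenerating and 253 FPKM in control discs at 0 h. Of the 6, 5 had a higher value in regenerating discs and 1, Fbp2, a lower, at 40.7 FPKM against 58.6 FPKM in control discs. By the rule 3 of 6 were higher at 0 h, when 7.47% of all measured genes were. After scaling 2 were higher and 1 lower, against 2.34% and 5.46% of all measured genes. At 15 h the markers summed to 143 FPKM in regenerating and 7.285 FPKM in control discs, and at 25 h to 708 FPKM in regenerating and 55.05 FPKM in control discs, with 6 of 6 higher at both times. Of all measured genes 5.95% were higher at 15 h and 9.11% at 25 h. The part of these cell types in the Ddc value was not tested.

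The other enzyme gene, ple (FBgn0005626, chromosome 3L, 6713356 to 6719525, minus strand, 3 transcripts), gave 0, 0 and 0.195 FPKM in regenerating discs at 0 h, 15 h and 25 h, against 0.41, 0 and 0 FPKM in control discs. Both values above 0 were under 1 FPKM, so ple was measured in no comparison. At 0 h, where Ddc was higher in regenerating discs, ple was listed at 0 in regenerating discs. The smallest amounts listed in that column correspond to 0.221 FPKM for a gene of its length, against 0.0394 FPKM in control discs at 0 h, so the columns do not reach equally low. How a merged value comes to be listed at 0 is not stated by the sources, so a 0 sets no upper limit.

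The transcription factor gene grh (FBgn0259211, chromosome 2R, 17801132 to 17842820, plus strand, 8 transcripts) gave 13.5, 23.9 and 10.8 FPKM in regenerating discs at 0 h, 15 h and 25 h, against 8.87, 17.4 and 16.9 FPKM in control discs. It was the higher in regenerating discs at 0 h and 15 h and the lower there at 25 h. The log2 ratios were 0.56, 0.44 and -0.60, none past the rule. Relative to the median of all measured genes they were 0.09, 0.08 and -0.70, so at the first 2 times grh lay near that median. At 25 h 9.44% of measured genes had a lower ratio. After median-of-ratios scaling the ratios were 0.06, 0.06 and -0.64.

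The values of grh at 15 h stood above those at 0 h in both kinds of disc. Its log2 ratio of 15 h over 0 h was 0.78 in regenerating and 0.90 in control discs, neither past the rule, and 0.55 in both after scaling. From 15 h to 25 h the ratio was -1.07 in regenerating discs, where grh was 1 of the 2.59% of measured genes called lower, and -0.04 in control discs. After scaling these were -0.91 and -0.21, so the call in regenerating discs was lost, with 1.61% of genes then lower. The difference between these 2 ratios was not tested, since each group gives a single merged value. An antisense RNA gene, asRNA:CR45270, overlaps the first bases of grh on the other strand over 793 bases. It stood at 9.66, 8.87 and 7.42 FPKM in regenerating discs and 5.88, 10.2 and 7.33 FPKM in control discs in order of time.

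Cad96Ca (FBgn0022800, chromosome 3R, 25197571 to 25208283, minus strand, 1 transcript), whose kinase is also known as Stitcher, gave 11.0, 11.0 and 11.8 FPKM in regenerating discs at 0 h, 15 h and 25 h, against 6.72, 9.535 and 10.6 FPKM in control discs. Regenerating discs were thus nearly level over time, and the 3 control values lay below the 3 regenerating values. The log2 ratios were 0.64, 0.18 and 0.14, or 0.17, -0.17 and 0.04 relative to the median of all genes. After scaling the ratio was 0.16 at 0 h and turned to -0.17 at 15 h, so the direction at 15 h depends on the scaling. A rule of 1.5 times in place of 2 would call Cad96Ca higher at 0 h as deposited. Of the 8202 genes measured then, 3267 pass that rule in either direction, and 70.3% have a ratio below that of Cad96Ca. The gene CG13654 covers 8466 bases of it on the other strand and stood at no more than 0.72 FPKM in any group.

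The receptor gene Pvr (FBgn0032006, chromosome 2L, 8220980 to 8239878, minus strand, 13 transcripts) had the narrowest range of the 8 over the deposited values, 0.25 on the log2 (FPKM + 1) scale. After scaling its range was 0.61, wider than the 0.24 of Cad96Ca. It gave 7.765, 6.78 and 6.865 FPKM in regenerating discs at 0 h, 15 h and 25 h, against 6.38, 6.88 and 7.365 FPKM in control discs. The highest of these values was 1.22 times the lowest. The log2 ratios of 0.25, -0.02 and -0.09 lay -0.22, -0.37 and -0.19 from the median of all measured genes. Scaling turned the ratio at 0 h to -0.23 and gave -0.36 at 15 h and -0.13 at 25 h. The direction at 0 h therefore depends on the scaling. Blood cells also express Pvr, and the hemocyte markers summed to 20.2, 25.6 and 22.3 FPKM in regenerating discs at 0 h, 15 h and 25 h, against 20.3, 27.1 and 19.5 FPKM in control discs. Much of each sum was crq, and without it the other 8 summed to 5.975, 8.60 and 8.97 FPKM in regenerating discs, against 10.9, 13.3 and 3.445 FPKM in control discs. Most markers thus stood lower in regenerating discs at 0 h (6 of 9) and 15 h (7 of 9) and higher at 25 h (6 of 9). The medians of the 6, 5 and 4 measured markers were -0.77, -0.69 and 0.40 relative to all genes. Tracheal markers (trh, Gasp, serp and verm) summed to 277, 374 and 449 FPKM in regenerating discs, against 176, 266 and 302 FPKM in control discs. The cuticle genes serp and verm, which are also in the list of chitin and apical matrix genes, made up most of these sums. The tracheal transcription factor gene trh stood at 6.76, 7.88 and 7.135 FPKM in regenerating discs, against 5.90, 9.35 and 8.205 FPKM in control discs, and so was the lower in regenerating discs at 15 h and 25 h. Markers of adult muscle precursors (twi, htl, zfh1, Him and Mef2) summed to 41.3, 51.1 and 50.1 FPKM in regenerating discs, against 29.8, 33.0 and 26.9 FPKM in control discs. Relative to all genes the medians of this list were -0.05, 0.14 and 0.15, so at 0 h it lay near the median of all. At 25 h 4 of 5 had a higher value in regenerating discs and 1 a lower. Of these, 2 were higher by the rule, twi and Him, when 9.11% of all measured genes were. The part of these cells in the levels of Pvr and its ligands was not tested.

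Among the ligand genes, Pvf2 was the most abundant in each of the 6 groups, holding between 76.8% and 85.7% of the summed FPKM of the 3 ligands. Pvf2 (FBgn0031888, chromosome 2L, 7069536 to 7084635, minus strand, 1 transcript) gave 20.4, 20.7 and 19.0 FPKM in regenerating discs at 0 h, 15 h and 25 h, against 16.9, 28.7 and 19.9 FPKM in control discs. Regenerating discs were level over time, and control discs had their highest value at 15 h. The log2 ratio at 15 h was -0.45, or -0.80 relative to the median of all measured genes, and 7.10% of measured genes had a lower one. After scaling it was -0.83, short of the rule under both. At 0 h the ratio was 0.26 as deposited and -0.26 after scaling, and at 25 h it was -0.06 and -0.10.

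Pvf1 (FBgn0030964, chromosome X, 18832682 to 18842901, plus strand, 3 transcripts), a ligand known from the guidance of border cells, gave 2.805, 5.68 and 4.09 FPKM in regenerating discs at 0 h, 15 h and 25 h, against 3.22, 4.425 and 4.34 FPKM in control discs. The plain level in regenerating discs at 15 h was 2.02 times that at 0 h, a log2 ratio of 0.81 on the scale of (FPKM + 1) and 0.60 after scaling, not past the rule. The same ratio in control discs was 0.36, or 0.06 after scaling. Between regenerating and control discs the log2 ratios were -0.15, 0.30 and -0.07, and scaling turned the one at 15 h to -0.03. At 0 h 8.71% of measured genes had a lower ratio than Pvf1.

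Pvf3 (FBgn0085407, chromosome 2L, 7098188 to 7157695, minus strand, 4 transcripts) lies 13.6 kb from Pvf2 on the same strand, at a far lower level. It gave 0.61, 0.565 and 0.51 FPKM in regenerating discs at 0 h, 15 h and 25 h, against 0.47, 0.79 and 0.65 FPKM in control discs. All 6 values were above 0 and under 1 FPKM, so Pvf3 was measured in no comparison. Its share of the summed ligand FPKM was between 2.10% and 2.62%. As with Pvf2, control discs had their highest value at 15 h.

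The summed FPKM of the 3 ligands over that of Pvr was 3.07, 3.97 and 3.44 in regenerating discs at 0 h, 15 h and 25 h, against 3.23, 4.93 and 3.37 in control discs. This quotient does not depend on the scaling of a column. It was lower in regenerating discs at 0 h and 15 h and slightly higher at 25 h. Cad96Ca over Pvr was 1.42, 1.62 and 1.72 in regenerating discs against 1.053, 1.39 and 1.44 in control discs, higher in regenerating discs at each time.

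**Figure D3:**
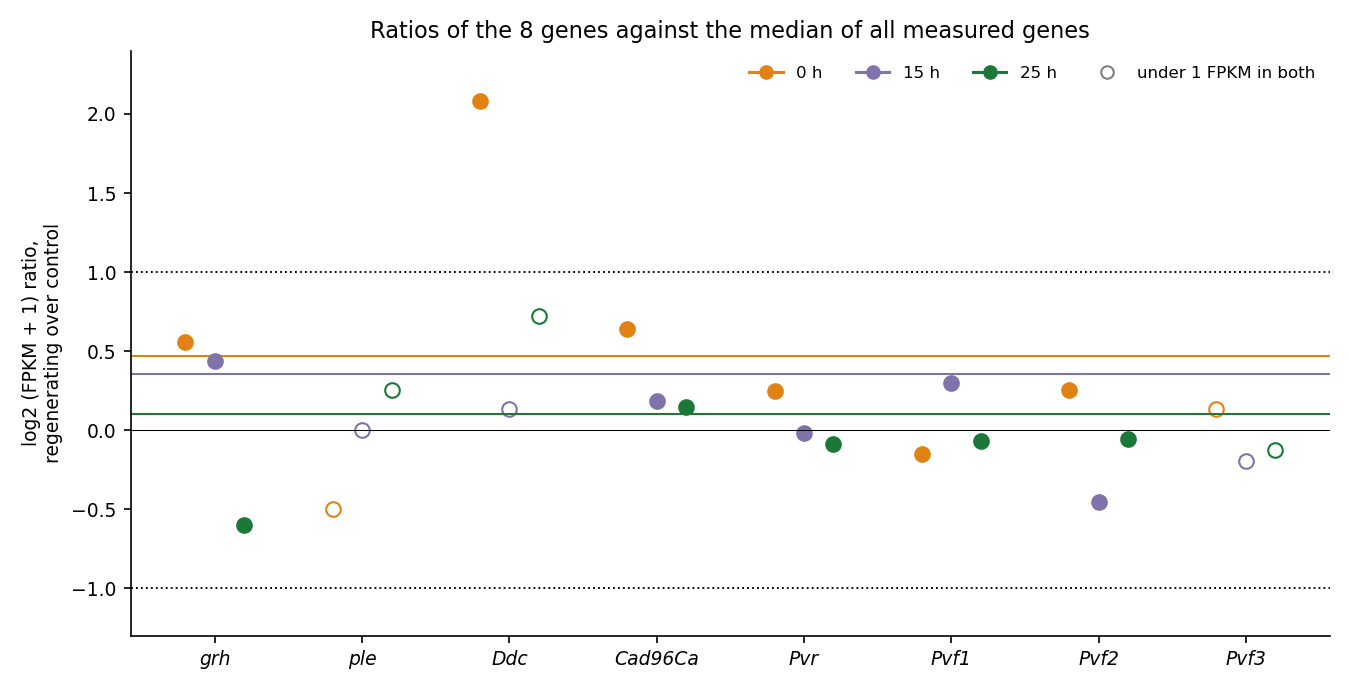
Log2 ratio of (FPKM + 1), regenerating over control (y axis), of the 8 genes (x axis) at 0 h, 15 h and 25 h. Coloured lines give the median of all measured genes at each time, dotted lines the rule of size, and open circles genes under 1 FPKM in both groups. Ddc at 0 h, at 2.08, is the 1 point beyond a dotted line, while Pvf2 at 15 h lies at -0.45 and grh at 25 h at -0.60.

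By mean FPKM over the 6 groups the order of the 8 genes was Pvf2 at 20.9, grh at 15.2, Cad96Ca at 10.1, Pvr at 7.01, Pvf1 at 4.09, Ddc at 1.27, Pvf3 at 0.599 and ple at 0.101. Among 17 receptor tyrosine kinase genes found in the table, without InR and btl, which matched no identifier, Cad96Ca ranked 6 and Pvr 7. Next above them stood Wsck with a mean of 14.2 FPKM and next below otk with 5.55 FPKM, and drl led with 39.4 FPKM. The growth factor receptor gene Egfr, which signals through the same Ras pathway as Pvr, had a mean of 24.2 FPKM. Of the 17 kinase genes, of which 11 or 12 were measured at each time, 0 were higher and 1 was lower in regenerating discs over the 3 times, with list medians of -0.01, -0.15 and -0.06 relative to all genes. This was Eph, the receptor of Ephrin, at 16.2 FPKM in regenerating and 40.8 FPKM in control discs at 25 h, when 3.2% of all measured genes were lower.

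**Figure D4:**
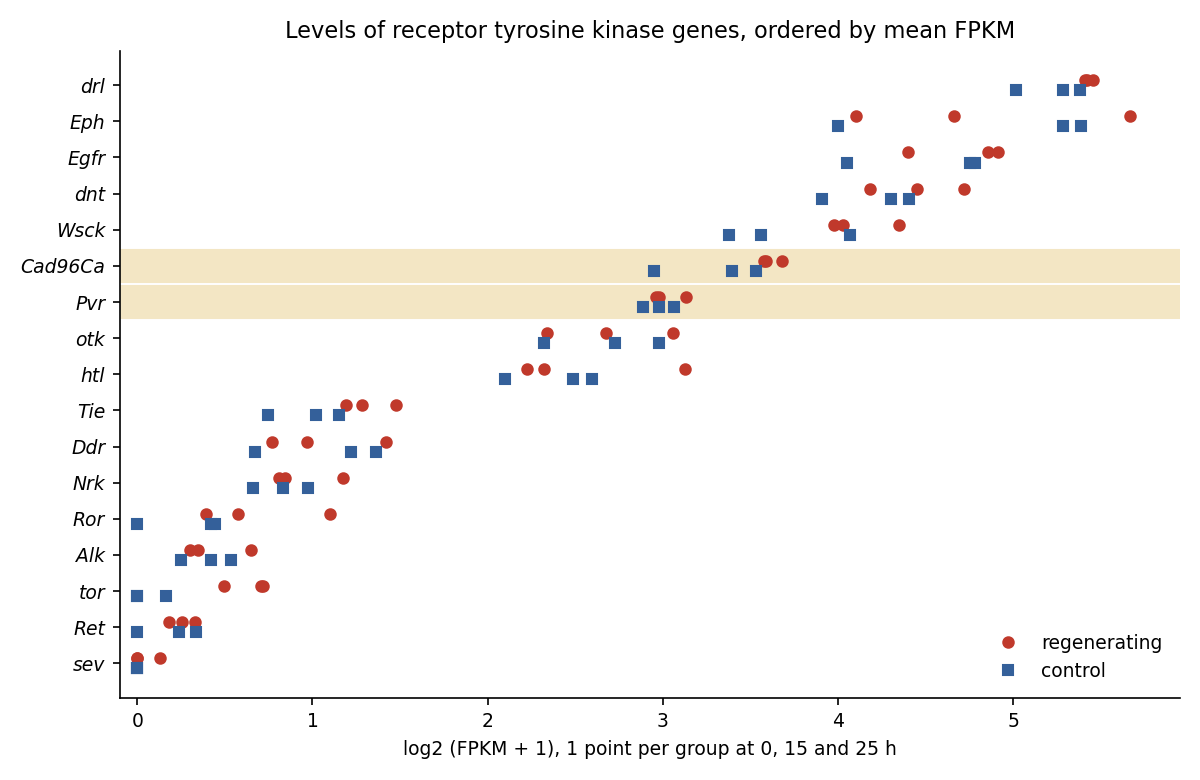
Levels of 17 receptor tyrosine kinase genes as log2 (FPKM + 1) (x axis), ordered by mean FPKM from top to bottom, with 1 point for each of the 3 times in regenerating (circles) and control discs (squares). Cad96Ca and Pvr, shaded, rank 6 and 7, and the points of Pvr span 0.25 from lowest to highest, against 0.73 for Cad96Ca, as deposited. InR and btl matched no identifier and are not shown.

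Genes that carry the Pvr signal inside the cell passed the rule in 1 instance over the 3 times. The list of 21 held adaptors such as Crk, the Ras and MAP kinase cascade, the Rac activators mbc, Ced-12 and Vav, and the PI3 kinase branch. All 21 were measured at each time. At 0 h and at 15 h 0 were higher and 0 lower, with list medians of -0.04 and -0.01 relative to all measured genes. Of all measured genes 7.47% and 5.95% were higher and 3.04% and 2.2% lower at these times. At 25 h 0 were higher and 1 was lower, when 9.11% of all measured genes were higher and 3.2% lower. The median of the list then lay at -0.30 relative to all genes, and 3 of 21 had a ratio above the median of all. In the same comparison the 8 wing disc markers had a median of -0.49 relative to all genes, with 1 of 8 above the median of all, and summed to 227 FPKM in regenerating and 282 FPKM in control discs. The fat body sums at 25 h, given above, moved the other way, and the part of either in the shift of the list was not tested. The lower gene was Pi3K21B, the regulatory subunit of PI3 kinase, at 6.68 FPKM in regenerating and 14.7 FPKM in control discs, which also passed the rule after scaling, when 3.53% of genes were lower. The kinase gene Akt of the same branch stood at 11.8 FPKM in regenerating and 23.7 FPKM in control discs at 25 h, a log2 ratio of -0.95. After scaling, 2 genes were lower at 15 h, when 4.01% of all measured genes were, the MAP kinase gene rl at 106 FPKM in regenerating and 185 FPKM in control discs and the adaptor gene Crk at 286 FPKM in regenerating and 501 FPKM in control discs.

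Of 14 wound signalling genes found in the table, 2 were higher at 0 h, the fly Jun gene Jra and the stress gene Gadd45, and 0 were lower, when 7.47% of all measured genes were higher. The log2 ratios of these genes were 1.19 and 1.72, and Gadd45 alone remained past the rule after scaling, when 2.34% of all measured genes were higher. At 0 h the median of this list was 0.23 relative to all genes, and 10 of 14 had a ratio above the median of all. At 15 h 0 were higher and 0 lower, when 5.95% and 2.2% of all measured genes were, and the list median was 0.04 above all genes. At 25 h again 0 were higher and 0 lower, when 9.11% and 3.2% of all measured genes were. The list median was then -0.33 relative to all genes. This stands beside the -0.49 of the wing disc markers at 25 h and beside the higher fat body sum in regenerating discs. Of the 8 wing disc markers 7 had a lower value in regenerating discs and 1 a higher. The lowest ratio was that of hth, at 26.1 FPKM in regenerating and 48.3 FPKM in control discs. The higher marker was tsh, at 51.7 FPKM in regenerating and 33.9 FPKM in control discs. The part of wing disc and fat body cells in the list median was not tested. The kinase gene msn, which links wounding to JNK, stood at 28.2, 47.9 and 26.7 FPKM in regenerating discs and 18.8, 32.0 and 30.5 FPKM in control discs in order of time. Like grh it had its highest value at 15 h in both kinds of disc. Flo2, which encodes a membrane scaffold protein, stood at 7.495 FPKM in regenerating and 15.9 FPKM in control discs at 25 h, a log2 ratio of -0.995 that missed the rule as deposited and passed it after scaling.

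The genes of catecholamine metabolism and cuticle tanning around ple and Ddc did not, as a list, share the Ddc difference at 0 h. Of 13 such genes found, 9 were measured at 0 h, and 0 were higher or lower. Their list median was -0.53 relative to all genes. Of the 9, 3 had a ratio above the median of all, t at 0.87, Hn at 0.73 and amd at 0.51. Pu, which encodes the enzyme that starts synthesis of the cofactor of tyrosine hydroxylase, stood at 3.11 FPKM in regenerating and 4.90 FPKM in control discs. The phenylalanine hydroxylase gene Hn stood at 2.86 FPKM in regenerating and 1.32 FPKM in control discs at 0 h. At 15 h it stood at 1.945 FPKM in regenerating and 0.79 FPKM in control discs. At 15 h 1 of 9 measured genes was higher, when 5.95% of all measured genes were. This was t (tan), whose enzyme frees dopamine from its beta-alanine conjugate. It stood at 3.69, 5.85 and 3.28 FPKM in regenerating discs at 0 h, 15 h and 25 h, against 1.57, 0.895 and 1.05 FPKM in control discs, the higher in regenerating discs at every time. It passed the rule at 15 h and 25 h as deposited and also after scaling, when 1.64% of genes were higher at 15 h and 8.46% at 25 h. The partner enzyme gene e (ebony), which makes that conjugate, was at no more than 0.32 FPKM in any group.

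At 25 h 5 of 10 measured tanning genes were higher and 0 lower, when 9.11% of all measured genes were higher. Besides t these were PPO1 and PPO2, which encode prophenoloxidases made by blood cells, Hn, which encodes phenylalanine hydroxylase, and yellow-f, which acts in melanin synthesis. PPO2 stood at 6.43 FPKM, Hn at 2.78 FPKM and yellow-f at 3.10 FPKM in regenerating discs. All 3 have a listed 0 in control discs, so these calls depend on that column. Zeros were frequent there among low genes. Where the median level lay between 1 and 2 FPKM, 46.8% were listed at 0, against 3.29% in regenerating discs at 25 h. Over genes above 0 in both columns, 332 were past the rule in either direction at 25 h, against 1003 as deposited. The 9.11% covers genes of all levels and is no matched background for low genes. PPO1 stood at 3.375 FPKM in regenerating and 0.765 FPKM in control discs. In the same comparison 6 of the 9 hemocyte markers (Hml, NimC1, Pxn, He, srp and Sr-CI) had a higher value in regenerating discs, 1 of them, He, past the rule, and the median of the 4 measured was 0.40 relative to all genes. He, srp and Sr-CI were at 0 in control discs, and lz in both. All 9 summed to 22.3 FPKM in regenerating and 19.5 FPKM in control discs, and without crq, at 13.3 FPKM in regenerating and 16.1 FPKM in control discs, the other 8 summed to 8.97 FPKM in regenerating and 3.445 FPKM in control discs. The fat body sums at 25 h given above belong to the same groups, and the part of these cells in the tanning genes was not tested.

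Of 16 genes of chitin and the apical matrix 0 were higher or lower at 0 h and at 15 h, and 1 was higher at 25 h. Of all measured genes 7.47%, 5.95% and 9.11% were higher and 3.04%, 2.2% and 3.2% lower in order of time. The 1 higher gene was Idgf6, a secreted protein related to chitinases, at 28.6 FPKM in regenerating and 9.31 FPKM in control discs. The list median lay at 0.00, -0.03 and 0.25 relative to all genes in order of time. The chitin synthase gene kkv, reported to respond to wounds together with ple and Ddc, stood at 23.4, 27.2 and 28.1 FPKM in regenerating discs and 14.7, 23.2 and 23.2 FPKM in control discs. Cht7, a chitinase gene, was at 8.48 FPKM in regenerating and 3.84 FPKM in control discs at 15 h, a log2 ratio of 0.97.

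**Figure D5:**
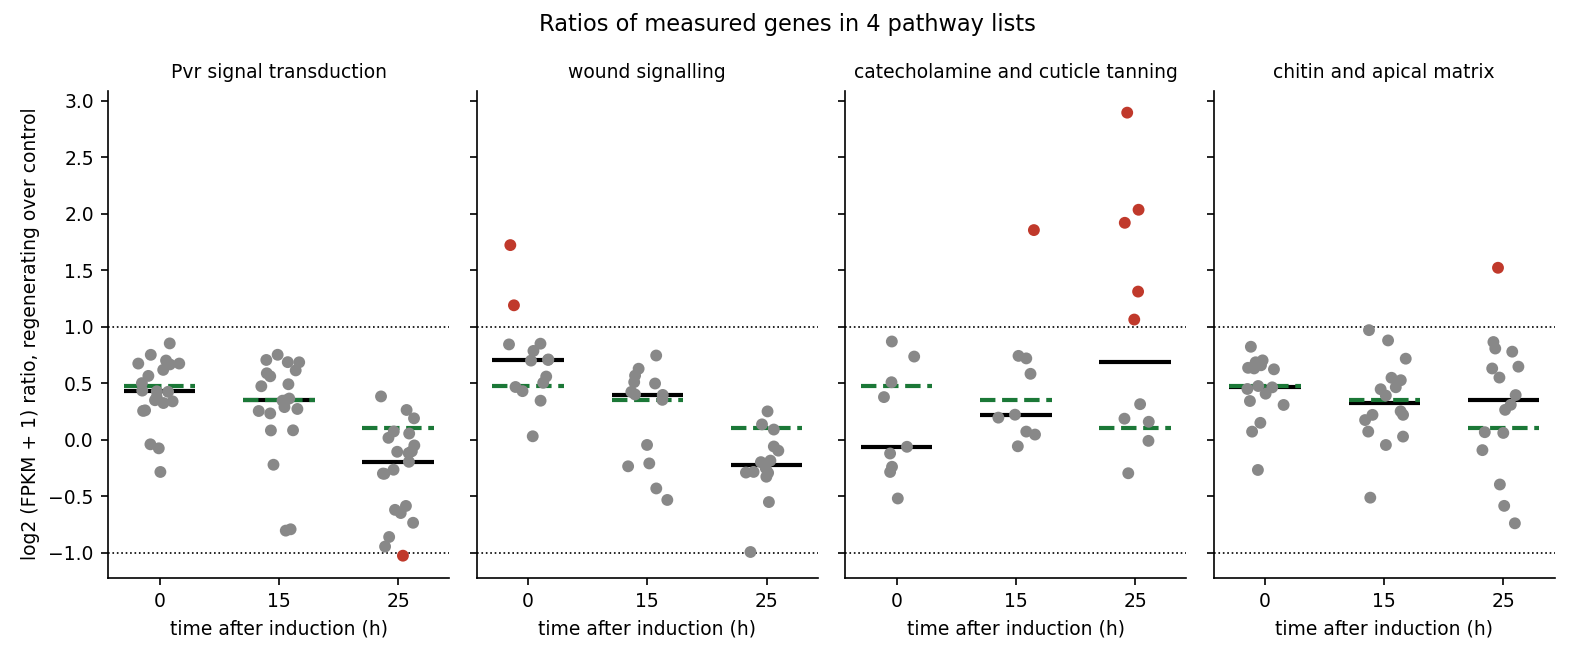
Log2 ratio of (FPKM + 1), regenerating over control (y axis), of the measured genes of 4 lists at 0 h, 15 h and 25 h (x axis), 1 point per gene, red where past the rule (dotted lines). Black bars are list medians and dashed green bars the median of all measured genes. The 5 red points of the tanning list at 25 h are t, Hn, PPO1, PPO2 and yellow-f, and the Pvr transduction list has 1, Pi3K21B, at 25 h.

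For the 3 genes with the widest range over the groups, the closest courses were sought among the 6926 genes that reached 5 FPKM in any group, by the root mean square difference of log2 (FPKM + 1) centred on each gene's mean over the 6 groups. For Ddc the closest were r-cup at a difference of 0.14, CG11437 at 0.19 and kar at 0.25, and 0 genes lay within 0.1. All 3 reached 5 FPKM in regenerating discs at 0 h alone, the group in which Ddc itself is highest. A low gene kept by the filter through that column resembles Ddc by the choice of genes, so nothing is concluded from this likeness. At 0 h r-cup stood at 5.865 FPKM in regenerating and 0.85 FPKM in control discs and CG11437 at 6.385 FPKM in regenerating and 0.29 FPKM in control discs, and both have a 0 in control discs at 25 h. For grh the closest were Lap1 at 0.03, Sur-8 at 0.03 and tna at 0.05, and 26 genes lay within 0.1. For Pvf1 they were Rnf146 at 0.07, Pino at 0.10 and CG11723 at 0.10. With 6 points per course and no replicates, these are descriptions of the columns.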

How the data were processed

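The authors deposited FPKM, with the libraries of a group merged into 1 column. Tools named in the submitters' processing notes are STAR 2.4.0j and RSEM, with dm6 as the build, but not the role of each nor the way of merging. Per the file headers, 1 further column belongs to no sample of this series and was not used. In 5 of the 6 columns whole numbers of at least 1000 ending in 5 were divided by 1000, which restored 19566 values, between 41.8% and 48.4% of those above 0 per column. Values of control discs at 0 h carry 2 decimals at most and had lost none, so this column could be a rounded mean or a single library, and all ratios at 0 h rest on it.

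Ratios used a pseudocount of 1 and a filter of 1 FPKM in 1 or both columns, over all 17158 genes. The files hold no counts, so depth was read only from the steps of low values in control discs at 0 h. A step and a length offset of 185 bases were fitted together, and 1 fragment per step would mean 8470000 fragments. Gene lengths, overlaps and coordinates come from the Ensembl annotation BDGP6.54 (dm6 coordinates). Symbols matched 16912 identifiers. Of the lists, Duox, stw, AANAT1, speck, InR and btl matched no identifier in the table and are not analysed here. No sequences are printed, and a planned search for motifs in the promoters was not run, since no sequences were at hand. The genes and lists were chosen with earlier results of these data known. Genes outside the 8 were named where past the rule in a comparison of regenerating with control discs, with kinases next to Pvr and Cad96Ca by rank and the 3 closest courses. Akt, Crk, Flo2, Cht7, msn, kkv, Pu, e, rl, Egfr, drl, crq, amd and the neighbours of Ddc were named after their values were seen. The same holds for the values given singly for hth, tsh, eater, trh and Fbp2. The design foresaw limma for replicate columns and a rule of size for merged ones, and the second applied. Calculations used Python 3.11.15, numpy 2.4.6 and pandas 2.3.3 and were tested on simulated data.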

Additional observations from a re-analysis of the deposited data

How the results depend on the processing

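Counts of the 8 genes past the rule were recomputed with a pseudocount of 0.1 or 5, with the filter dropped or raised to 5 FPKM, with columns set to 1 sum or scaled by median of ratios, with rules of 1.5 and 4 times, and, chosen after the data were seen, over genes above 0 in both columns. Of these counts 150 stayed and 12 moved. Dropping the filter could not move a count, since with a pseudocount of 1 a ratio past the rule already needs 1 FPKM. Most of the other counts that stayed were 0 and remained 0. The 150 are therefore no measure of how firm the calls are. With a pseudocount of 5, 0 genes were higher at 0 h between regenerating and control discs and 0 were lower in regenerating discs at 15 h over 0 h, 25 h over 15 h and 25 h over 0 h. A larger pseudocount shrinks every ratio, most for low genes such as Ddc, and the call at 25 h over 15 h was that of grh, whose ratio of -1.07 lay just past the rule. Under median-of-ratios scaling 0 were lower in regenerating discs at 25 h over 15 h. Under the rule of 4 times 0 were lower in regenerating discs at 25 h over 15 h and at 25 h over 0 h. Under the rule of 1.5 times 2 were higher at 0 h (Ddc and Cad96Ca) and 1 was lower at 25 h (grh, at -0.60) between regenerating and control discs, and 2 were higher at 15 h over 0 h in regenerating discs, and in control discs for both 15 h over 0 h and 25 h over 0 h. Over all measured genes 862, 660 and 1003 were past the rule between regenerating and control discs in order of time. These counts ranged from 105 to 3267, 84 to 2771 and 254 to 2007 over the alternatives, lowest under the rule of 4 times and highest under that of 1.5 times. Of the called genes 71.1%, 73.0% and 74.0% were higher as deposited, and 30.0%, 29.0% and 70.6% after median-of-ratios scaling.

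No paired analysis was possible because each group has 1 merged column, and for the same reason leaving out each replicate was not run. The columns reach unequally low. Among control discs 7465 genes were listed at 0 at 0 h and 9462 at 25 h, where the smallest amounts listed were 0.116 and 1.053 FPKM times kilobase. Differences of ple and Pvf3 were not detectable at these levels.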
